A study of Arabidopsis thaliana with 6 samples.

Results

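The genes described here are the α-expansins EXPA7 (AT1G12560), EXPA8 (AT2G40610) and EXPA18 (AT1G62980), the expansin-like gene EXLB1 (AT4G17030) and the xyloglucan endotransglucosylase/hydrolase gene XTH19 (AT4G30290) of Arabidopsis thaliana. They were taken as every probe set of the array that names only 1 of these genes in the platform annotation, which gave 5 probe sets, 1 per gene, of 22810 in the table. Whole young seedlings, with cotyledons, hypocotyl and primary root, were hybridised to 6 ATH1 arrays, 2 for each of 3 groups. All groups were grown at 23 °C on agar with Murashige and Skoog salts and 1.5% (w/v) sucrose, for 3 days in the dark and then for 3 days under constant white light, and had no true leaves. The groups were wild type Col-0 without herbicide, wild type Col-0 with 5 µM norflurazon, and, on the same 5 µM of herbicide, seedlings mutant in both gun1 and gun5 (the gun1,gun5 double mutant). Norflurazon blocks carotenoid synthesis, so that plastids bleach in the light, and gun (genomes uncoupled) mutants keep nuclear photosynthesis genes more active when plastids are damaged. The labels name neither the gun1 and gun5 alleles nor separate plantings for the replicates, so the p-values measure a spread between samples that may be partly technical. Mutant seedlings without norflurazon are not analysed here, and the effect of the mutations alone cannot be told apart from their effect on the response to the herbicide.

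Plant cells enlarge when the cell wall yields to turgor, and both protein families act on the wall. Expansins loosen it without cutting its polymers, by weakening the contacts between cellulose and xyloglucan. Xyloglucan endotransglucosylase/hydrolases (XTHs) cut xyloglucan chains and rejoin them to others. EXPA7 and EXPA18 are known for expression in the root hair cells of the epidermis, where they act in hair initiation and growth. XTH19 is known for expression in roots and for its response to auxin, and it belongs to a group of closely related XTH genes. EXPA8 is a further member of the α-expansin family, and EXLB1 belongs to a small expansin-like branch whose biochemical activity is not established. In RNA of whole seedlings, fewer cells of a type and less RNA per cell cannot be told apart.

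EXPA8 and XTH19 had their lowest signals in the mutant, where EXPA8 was 4.34-fold lower than in the wild type on the same herbicide. XTH19 missed the threshold in that comparison. It passed only against the untreated wild type, a call that was lost on leaving out either control array. EXLB1 was highest without herbicide and lowest in the wild type on norflurazon, a difference that passed narrowly and was lost without the filter on dim probe sets. The signals of the root hair genes EXPA7 and EXPA18 passed the test in no comparison.

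**Figure D1:**
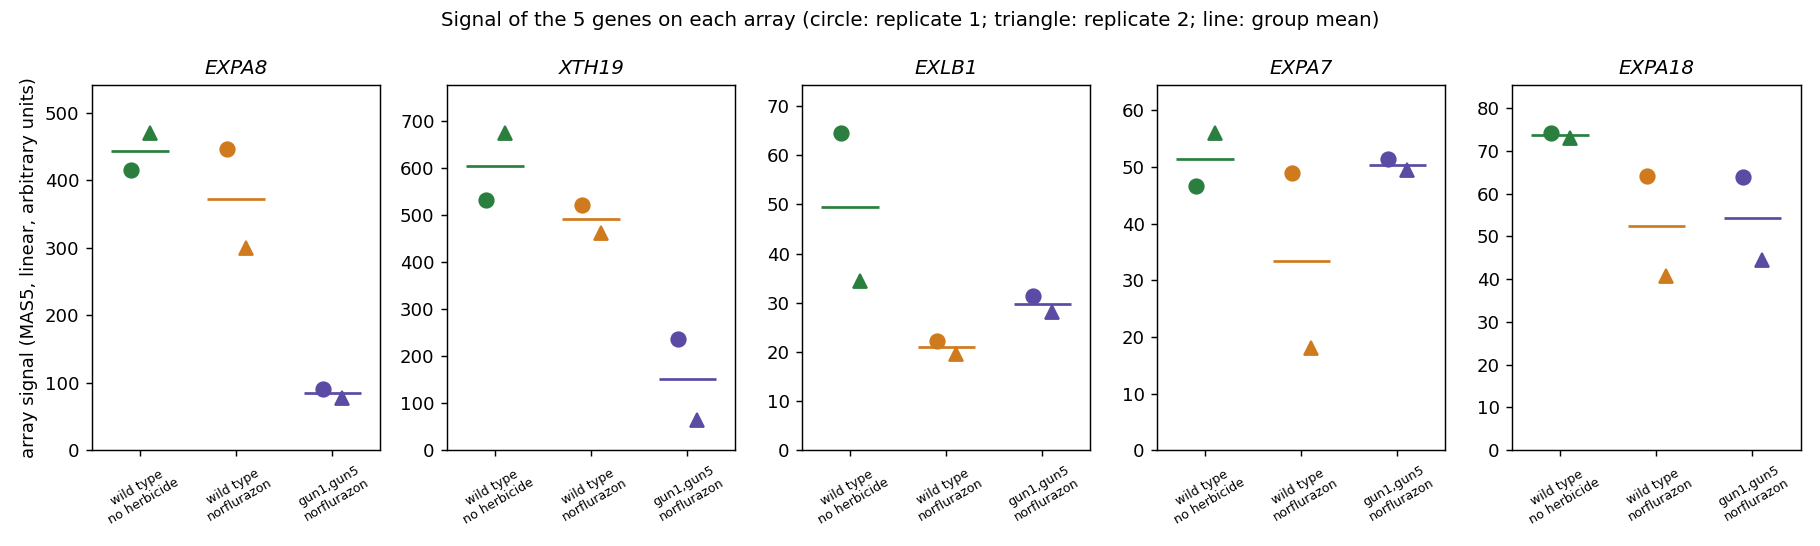
Array signal (linear scale, arbitrary units, axis from 0) of each of the 5 genes in the 3 groups; circles are replicate 1, triangles replicate 2 and lines group means of 2 arrays. EXPA8 lay at 91.4 and 77.6 in the mutant against 299.2 or more elsewhere, and the low point of EXPA7 is the 18.1 of wild type norflurazon replicate 2.

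The array signals are linear MAS5 values, and differences between groups were tested with limma on log2(signal + 0.05) over 13648 probe sets, with a Benjamini-Hochberg adjusted p under 0.05 as the threshold. Log2 changes are given as one group's mean minus the other's on that scale. Fold values between groups are these changes turned back to the linear scale, so they can differ from the ratio of the mean signals. All 5 genes passed the filter on dim probe sets, set at a mean signal of 27.6. EXLB1 passed it narrowly with a geometric mean of 30.9 over the 6 arrays, and did so through its control arrays: over the other 4 the mean was 24.97, under the filter. EXPA7 was at 42.6, EXPA18 at 58.6, EXPA8 at 238.9 and XTH19 at 331.6. The replicate pairs differed in how alike they were, with a standard deviation of the log2 difference of 0.271 for the controls, 0.451 for the mutant and 0.589 for the wild type on norflurazon. In the last pair the signal of the 25S ribosomal RNA control probe set was 2511.1 on replicate 1 and 8.2 on replicate 2. The 3′ to 5′ ratio of actin was 1.65 and 3.63 there. In the mutant pair replicates 1 and 2 had 25S signals of 115.6 and 21 and actin ratios of 2.00 and 3.21. The control pair had 15.2 and 11.1, and 2.46 and 2.78. The part of RNA quality in the results was not tested.

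The tissue label could be checked for green shoot tissue only, and on the control arrays alone. The 6 measured genes of the 8 listed for it had signals from 2007.6 to 3611.6 on the control arrays. LHCB4.2, a chlorophyll-binding protein of photosystem II, gave 2596.2 and 2249.6 without herbicide, 200.5 and 80.4 in the treated wild type, and 723.1 and 494.0 in the mutant. By the same limma test all 6 passed as lower on norflurazon in the wild type, as did 9.85% of all probe sets. All 6 also passed as higher in the mutant than in the treated wild type, where 250 of 13648 probe sets did. Photosynthesis genes are those that gun mutations keep more active, so these changes do not check the tissue label. For roots the check could not be made. Of 23 listed root hair genes only XTH26 was named, with signals from 1.2 to 4.3, and none of the 15 genes for other root cells, the 6 for hair patterning and the 5 for shoot epidermis was named. The part of tissue proportions in the values below was therefore not tested.

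Among the α-expansins of the set, EXPA8 differed most between the mutant and each wild type group. Its signals were 415.3 and 470.8 without herbicide, 446.8 and 299.2 in the wild type on norflurazon, and 91.4 and 77.6 in the mutant. The 4 wild type arrays overlapped between treatments, and both mutant arrays lay far below all of them. The group means were 443.1 ± 39.2, 373.0 ± 104.4 and 84.5 ± 9.76 (SD, n = 2).

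Between mutant and wild type on norflurazon the log2 change of EXPA8 was -2.12 ± 0.23 (SE; 95% interval -2.65 to -1.59; limma adjusted p = 0.00461). Of the 13648 probe sets tested, 15 had a lower log2 change. Against the wild type without herbicide the mutant was lower by a log2 change of -2.39 ± 0.23 (SE; limma adjusted p = 0.00102), a signal 5.25-fold lower. Both calls held in each of 14 alternative analyses, with log2 changes from -2.41 to -1.83 in the first and from -2.51 to -2.19 in the second, and the highest adjusted p of the first was 0.0477, without mutant replicate 2.

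Norflurazon itself gave EXPA8 a log2 change of -0.27 in the wild type (95% interval -0.81 to 0.26; limma adjusted p = 0.44). The interval holds a decrease of up to 0.81 and an increase of up to 0.26 on the log2 scale. Without wild type norflurazon replicate 2, the lower of that pair, the change was 0.01. In order of level EXPA8 thus ran from the untreated wild type over the treated wild type to the mutant, and the first pair of neighbours did not differ beyond its spread.

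**Figure D2:**
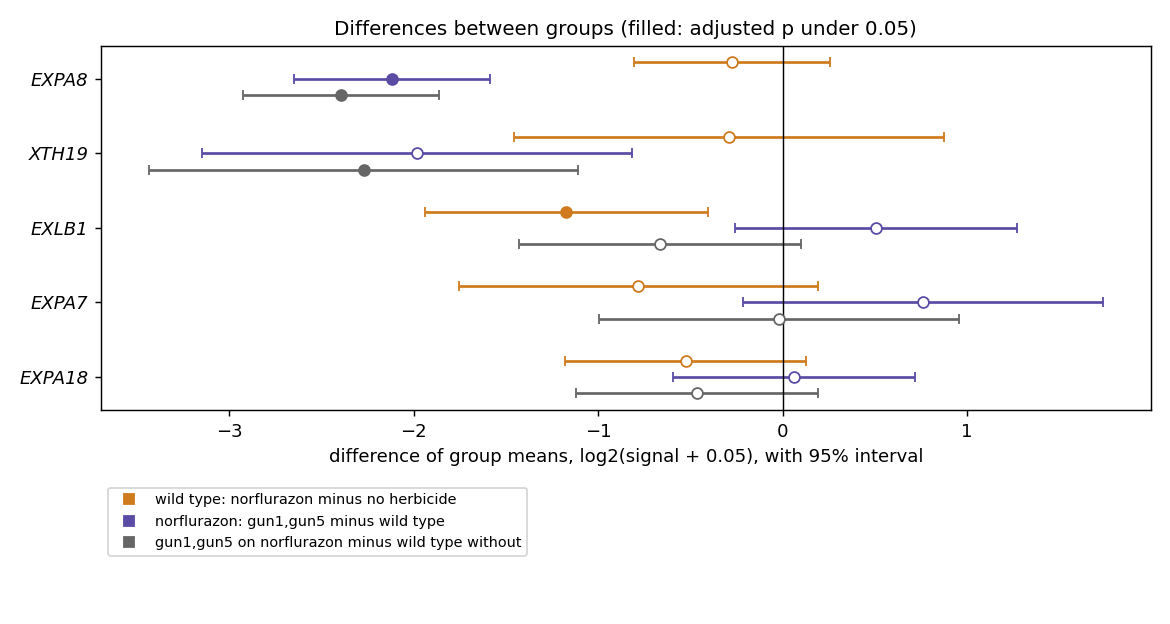
Difference of group means on log2(signal + 0.05) for the 5 genes in 3 comparisons, with the 95% interval of the limma fit; filled circles passed an adjusted p of 0.05. EXPA8 and XTH19 lay near -2 in the mutant against the treated wild type, with intervals of -2.65 to -1.59 and -3.14 to -0.82.

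The other α-expansins in the set, EXPA7 and EXPA18, had no such difference. EXPA7 gave 46.7 and 56.1 without herbicide, 48.9 and 18.1 in the wild type on norflurazon, and 51.4 and 49.5 in the mutant. On 5 of the 6 arrays its signal lay between 46.7 and 56.1, and wild type norflurazon replicate 2 was the exception. Its log2 change on norflurazon in the wild type was -0.78 (95% interval -1.76 to 0.19; limma adjusted p = 0.232). In the mutant against the treated wild type it was 0.76 (95% interval -0.21 to 1.74; limma adjusted p = 0.446).

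A single array decided both values of EXPA7. Without wild type norflurazon replicate 1, which leaves the low array alone in its group, the changes were -1.50 (limma adjusted p = 0.0091) and 1.48 (limma adjusted p = 0.0315). Without replicate 2 they were -0.07 and 0.04. Between the mutant and the untreated wild type EXPA7 differed by -0.02 (95% interval -0.996 to 0.95).

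EXPA18 had signals of 74.3 and 73.0 without herbicide, 64.1 and 40.8 in the wild type on norflurazon, and 63.9 and 44.6 in the mutant. The control arrays lay above the other 4, and the treated groups overlapped fully. The log2 change was -0.53 on norflurazon in the wild type (95% interval -1.18 to 0.13; limma adjusted p = 0.231) and -0.46 in the mutant against the untreated wild type (95% interval -1.12 to 0.19; limma adjusted p = 0.286). The treated groups differed by 0.06 (95% interval -0.59 to 0.72). Replicate 2 was the lower array in both treated groups.

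The signals of EXLB1, the expansin-like gene, were 64.6 and 34.4 without herbicide, 22.3 and 19.6 in the treated wild type, and 31.3 and 28.2 in the mutant. The 3 groups did not overlap, but the control arrays differed 1.88-fold from each other, and the lower control array stood only slightly above the mutant ones. On norflurazon the wild type fell by 1.17 ± 0.33 on the log2 scale (SE; 95% interval -1.94 to -0.41; limma adjusted p = 0.0442), a signal 2.25-fold lower.

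The call for EXLB1 lies at the threshold and depends on the filter, which the gene passed through the group where it is high: without a filter the adjusted p was 0.0914. It was lost in 9 of the 13 alternatives that could be fitted, with adjusted p-values from 0.0525 with median scaling to 0.32 without control replicate 1, where the change was -0.72. Leaving out any other array besides control replicate 2 also ended it, with adjusted p-values of 0.0671 and 0.0935 without wild type norflurazon replicate 1 and 2, and 0.0695 and 0.0679 without mutant replicate 1 and 2. In the mutant EXLB1 lay between the wild type groups, with a log2 change of 0.51 from the treated wild type (95% interval -0.26 to 1.27; limma adjusted p = 0.542) and of -0.67 from the untreated one (95% interval -1.43 to 0.10; limma adjusted p = 0.198).

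XTH19 followed the order seen for EXPA8, with more spread in the mutant. Signals were 532.0 and 675.0 without herbicide, 521.2 and 460.9 in the wild type on norflurazon, and 236.6 and 65.1 in the mutant. The wild type groups lay close together without overlap, and both mutant arrays were below them although they differed 3.63-fold from each other. Against the untreated wild type the mutant was lower by a log2 change of -2.27 ± 0.50 (SE; 95% interval -3.43 to -1.11; limma adjusted p = 0.0197), a signal 4.83-fold lower.

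The drop from the treated wild type to the mutant was of like size, at -1.98 ± 0.50 (SE; 95% interval -3.14 to -0.82), and missed the threshold (limma adjusted p = 0.0928); 22 of the 13648 probe sets had a lower change. It was -2.91 without mutant replicate 1 (limma adjusted p = 0.0148) and -1.05 without mutant replicate 2. With the replicate number as a block the adjusted p was 0.0498. The comparison with the untreated wild type did not pass without control replicate 1 (-2.44; limma adjusted p = 0.101) or control replicate 2 (-2.10; limma adjusted p = 0.133). Norflurazon in the wild type gave XTH19 a change of -0.29 (95% interval -1.45 to 0.87; limma adjusted p = 0.721).

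**Figure D3:**
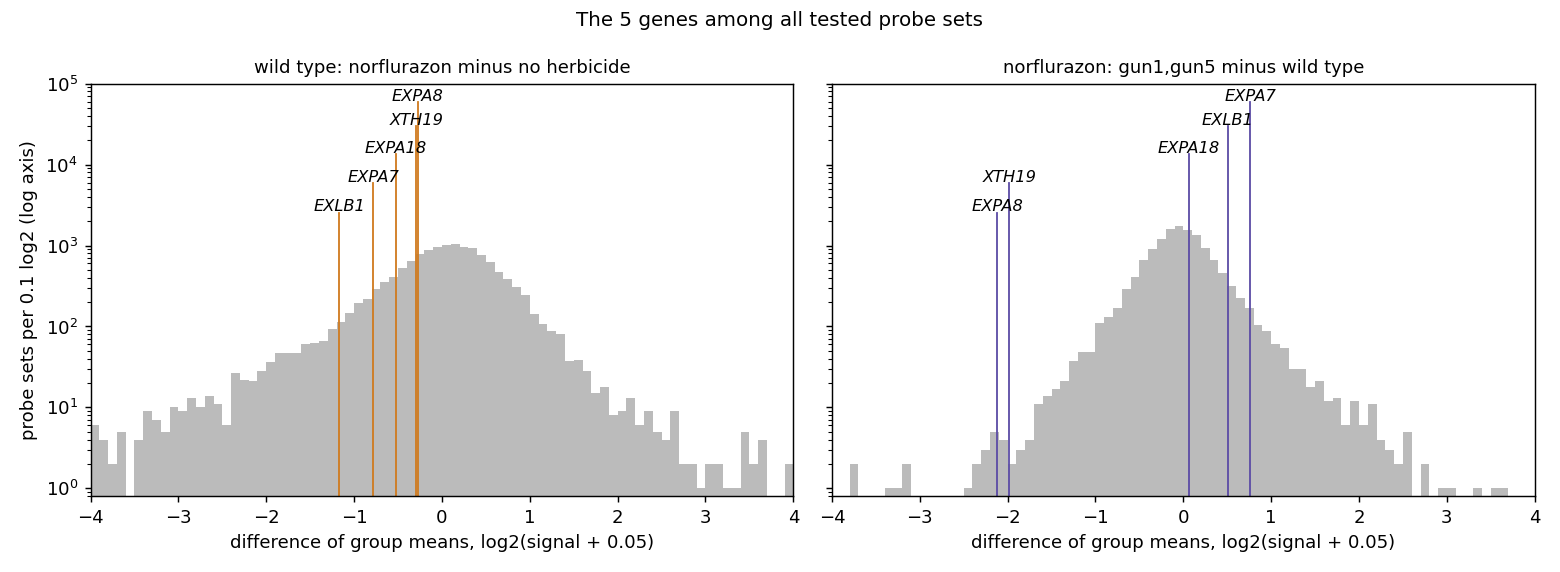
Histograms (log axis) of the log2 difference of group means over 13648 probe sets for norflurazon in the wild type and for mutant against wild type on norflurazon, with the 5 genes marked by lines. The axis runs from -4 to 4, with 28 and 3 probe sets outside it; in the second panel EXPA8 and XTH19 lie in the thin left tail, with 15 and 22 probe sets below them.

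Counted together, 1 of the 5 genes passed for norflurazon in the wild type, EXLB1, with the limit given for it above; of all probe sets 18.9% passed and 9.85% passed as lower. In the mutant against the treated wild type 1 of 5 passed, EXPA8, where 2.95% of all probe sets passed and 1.11% passed as lower. Against the untreated wild type 2 of 5 passed, EXPA8 and XTH19, both lower in the mutant, where 18.8% passed and 10.3% passed as lower. Arrays did not overlap between the groups for 3, 4 and 4 of the 5 genes in the same order of comparisons, beside 62.2%, 40.8% and 68.2% of all probe sets. All 5 had negative log2 changes on norflurazon in the wild type, with a median of -0.53. Over all probe sets the median was 0.06 and 45.5% were negative. Without wild type norflurazon replicate 2 the changes of EXPA8, EXPA7 and EXPA18 were 0.01, -0.07 and -0.20. Those of XTH19 and EXLB1 were -0.20 and -1.08. The 3 comparisons share arrays, so their values are set side by side and not as independent evidence. The 5 genes were chosen with earlier results of these data known, so their counts are no test against all probe sets.

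Over the 6 arrays the log2 signals of EXPA8 and XTH19 had a Pearson correlation of 0.91, the highest among the 10 pairs of the 5 genes. EXPA7 and EXPA18 had a correlation of 0.70 and EXPA18 and EXLB1 one of 0.67, while EXPA7 with EXPA8 gave -0.13 and EXPA7 with XTH19 gave -0.16. These are descriptions over 6 arrays that fall into 3 groups; in both EXPA8 and XTH19 the mutant arrays were the lowest.

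The genes with the most similar profile were looked for among 7280 other tested probe sets with 1 locus. For EXPA8 they were AT5G66310, AT4G32460 and AT3G07570, with Pearson correlations of log2 signal of 0.995, 0.992 and 0.991 over the 6 arrays. AT4G32460 went from 798.3 and 846.6 without herbicide and 818.1 and 683.2 in the treated wild type to 189.3 and 199.6 in the mutant. For XTH19 they were AT1G21480, TUB5, a β-tubulin gene, and AT1G72480, at 0.995, 0.994 and 0.993. TUB5 had 263.0 and 327.7, then 287.0 and 278.1, then 188.7 and 105.1, with replicate 2 again the lower mutant array.

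For EXLB1 the closest profiles were those of AT2G39950, AT3G52360 and AT2G42190, with correlations of 0.992, 0.987 and 0.967. For EXPA18 they were AT3G32930, AT3G01920 and AT1G25400, at 0.989, 0.983 and 0.983, and for EXPA7 AT5G13090, AT5G27220 and AT2G20830, at 0.971, 0.962 and 0.955. These are the highest of 7280 values each over only 6 arrays, and the likeness is given as a description.

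The wider family was read from symbols and synonyms. It had 29 named probe sets for expansins and XTHs, the 5 genes included, of which 16 passed the filter on dim signals. The 13 others had signals from 0.5 to 42.8 on single arrays and were not tested. Of the 11 tested besides the 5 genes, XTH18 and EXPB3 fell on norflurazon in the wild type and the other 9 did not pass, with a median log2 change of 0.07 over the 11. A count of 2 of 11 is near the 18.9% of all probe sets that passed there.

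XTH18, which directly precedes XTH19 in the gene order of the RefSeq annotation and is closely related to it, had signals of 192.2 and 197.7 without herbicide, 103.7 and 114.5 in the treated wild type, and 127.6 and 90.4 in the mutant. It fell on norflurazon in the wild type by 0.84 on the log2 scale (limma adjusted p = 0.0314) and differed by -0.02 between the treated groups (limma adjusted p = 0.981), where XTH19 differed by -1.98. Whether the pair of neighbours differ in their changes, and whether their probes share signal, was not tested. EXPB3, a β-expansin gene, went from 159.0 and 141.5 over 80.4 and 100.1 to 65.1 and 58.8, falling by 0.74 on norflurazon (limma adjusted p = 0.0381). In the mutant against the untreated wild type XTH18 and EXPB3 also passed, at -0.86 (limma adjusted p = 0.0293) and -1.28 (limma adjusted p = 0.00584). Here too 2 of 11 is near the share of all probe sets that passed, 18.8%. Leaving out either control array ended the call of both genes in both comparisons, with adjusted p-values from 0.0572 to 0.262. On norflurazon the call of EXPB3 also ended without mutant replicate 1 or 2 (adjusted p = 0.0584 and 0.0589) or without replicate 1 of the treated wild type (0.0831), without a filter (0.0551) or with only the compared arrays (0.0561), and XTH18 without wild type norflurazon replicate 1 (0.0628). Against the untreated wild type XTH18 lost it without mutant replicate 2 (0.159).

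**Figure D4:**
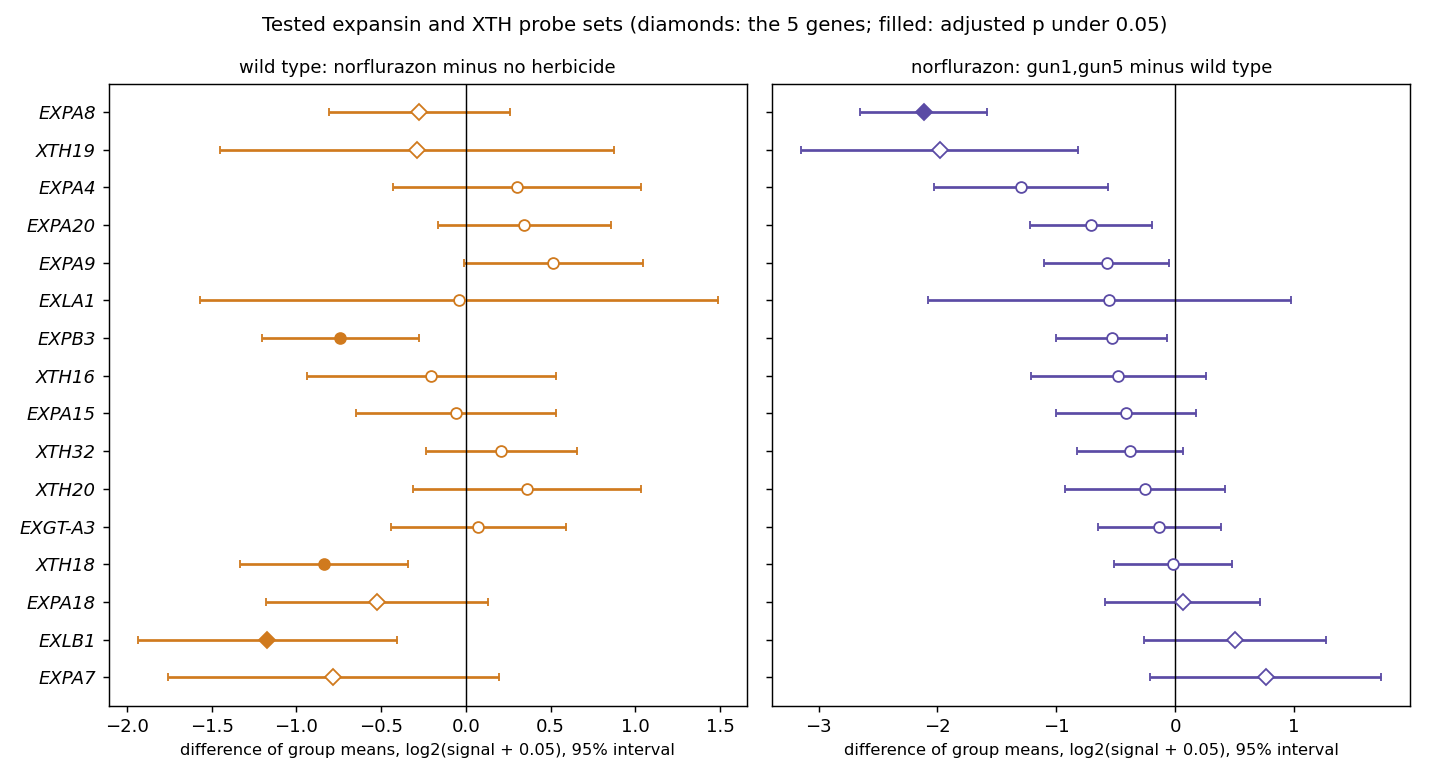
Difference of group means on log2(signal + 0.05), with 95% intervals, for the 16 tested expansin and XTH probe sets, ordered by the right panel; diamonds are the 5 genes and filled symbols passed an adjusted p of 0.05. On norflurazon XTH18, EXPB3 and EXLB1 are filled at the left, and in the mutant against the treated wild type only EXPA8 is.

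In the mutant against the wild type on norflurazon limma called none of these 11 probe sets, while 4 were under 0.05 before adjustment, as were 16.2% of all probe sets. All 11 log2 changes were below 0, with a median of -0.48; over all probe sets 54.7% were below 0 and the median was -0.04. With quantile normalization or median scaling XTH18 turned positive and 10 of 11 remained below 0, and without mutant replicate 2 it was 8 of 11. EXPA4, another α-expansin gene, had signals of 105.5 and 101.2 without herbicide, 171.8 and 94.3 in the treated wild type, and 63.2 and 42.2 in the mutant, a change of -1.30 that missed the threshold (limma adjusted p = 0.0817) and passed with the replicate number as a block (adjusted p = 0.0249) or without wild type norflurazon replicate 2 (adjusted p = 0.0202).

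Other wall genes were sparse in the annotation. Of 31 named probe sets in the listed wall families 20 were tested. On norflurazon in the wild type 1 of the 20 passed as higher and 1 as lower, where 18.9% of all probe sets passed. In the mutant against the untreated wild type it was again 1 higher and 1 lower, beside 18.8% of all probe sets. CSLC5, of the family that makes the glucan backbone of xyloglucan, fell on norflurazon in the wild type from a mean signal of 150.35 ± 0.071 to 92.8 ± 6.93 (SD, n = 2), by 0.70 on the log2 scale (limma adjusted p = 0.0328), and was lower still in the mutant than in the untreated wild type, at -1.08 (limma adjusted p = 0.00706). PRP39 rose by 0.95 (limma adjusted p = 0.0182) and was also higher in the mutant than in the untreated wild type; it entered by its symbol and encodes an RNA processing factor, not a wall protein. Its calls ended without control replicate 1 (adjusted p = 0.154 and 0.190) or 2 (0.119 and 0.152), and the second also without mutant replicate 1 (0.0635) or 2 (0.142). The calls of CSLC5 were lost without control replicate 1 (adjusted p = 0.209 and 0.0841) or 2 (0.199 and 0.0821), and on norflurazon also without wild type norflurazon replicate 1 (0.0583) or mutant replicate 1 or 2 (0.0524 and 0.0527) or with only the arrays of the compared groups (0.0501); against the untreated wild type it was lost without mutant replicate 2 (0.0506). Between the treated groups limma called 0 of 20, with 2 under an unadjusted p of 0.05, beside 16.2% of all probe sets, and CSLC04 nearest at -0.67 (limma adjusted p = 0.233).

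Of 13 listed genes that respond to auxin or brassinosteroid in growing tissue, 4 were named and 3 tested. The homeobox gene HAT2 fell on norflurazon in the wild type by 0.75 (limma adjusted p = 0.0325), and WES1, which encodes an enzyme that conjugates auxin to amino acids, fell by 0.75 (limma adjusted p = 0.0302). These were 2 of the 3 tested, where 9.85% of all probe sets passed as lower. HAT2 and WES1 also passed against the untreated wild type, at -1.13 (limma adjusted p = 0.00777) and -1.46 (limma adjusted p = 0.00295). There 10.3% of all probe sets passed as lower in the mutant, and these calls did not all hold on leaving out 1 array. Signals of WES1 were 240.4 and 278.8 without herbicide, 169.0 and 139.4 in the treated wild type, and 91.4 and 96.6 in the mutant. The groups did not overlap, which is common over all probe sets. It held for 62.2% of them on norflurazon in the wild type, 40.8% between the treated groups and 68.2% for mutant against untreated wild type. On norflurazon both calls were lost without control replicate 1 (adjusted p = 0.251 for HAT2 and 0.143 for WES1) or 2 (0.136 and 0.239), that of HAT2 also without wild type norflurazon replicate 1 (0.0578) and that of WES1 without replicate 2 of that group (0.0590). Between the treated groups limma called 0 of 3, and 1 was under an unadjusted p of 0.05 (16.2% of all probe sets), WES1 at -0.71 (limma adjusted p = 0.111). GH3.3, of the same enzyme family as WES1, had 25.7 and 32.1 without herbicide against 164.1 and 68.2 in the treated wild type, and 53.0 and 299.7 in the mutant. Its log2 change on norflurazon was 1.88 (limma adjusted p = 0.114). IAA29 was under the filter and not tested, with 50.1 and 42.6 without herbicide and 7.4 to 17.5 on the 4 norflurazon arrays.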

How the data were processed

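The authors deposited 1 linear intensity per probe set and array. MAS5 is the tool named by the submitters' processing notes, and which version was run is not stated in the sources used here. No detection calls were used. The 64 control probe sets were left out, 0.05 (0.5 times the smallest positive signal) was added before log2, and the 13648 probe sets with a mean at or above the 40th percentile were tested. All 6 arrays entered a single limma 3.58.1 model (R 4.3.3) of 3 group means, with an intensity trend. The model left 3 residual and 4.89 prior degrees of freedom. It was tested on simulated data with independent noise and no replicate effect, and the outcome is not reported here. P-values are two-sided and Benjamini-Hochberg adjusted over all probe sets tested; the number of arrays limits the precision. Samples were grouped by their titles. In the platform annotation 13513 probe sets have 1 gene symbol, 503 have several and 8794 have none here; names were updated through the RefSeq table of TAIR10.1 (13436 matched). The 5 genes and the lists were chosen with earlier results of these data known. All 5 are named, as are family genes past the threshold (at most 6 per comparison), up to 2 genes of each other list past it or the 1 with the smallest p, and the 3 most similar profiles per gene. EXPA4, XTH26, GH3.3 and IAA29 were named after their values were seen. Alternatives were 2 normalizations, a pseudocount of 16, 2 other filters, no intensity trend, fits of the compared groups alone, a replicate block, and leaving out each array. Promoter sequences were not analysed here.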

Additional observations from a re-analysis of the deposited data

How the results depend on the processing

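Across 15 log2 changes (5 genes in 3 comparisons) and up to 14 alternatives each, 201 values were computed; 179 kept their direction and side of the threshold, 11 lost and 4 gained a call, and 7 changed sign, none of them a called value. Those 7 were EXPA7 in the mutant against the untreated wild type, at 0.0706 with quantile normalization, 0.0909 with median scaling, 0.111 without control replicate 2 and 0.00604 without mutant replicate 2 (-0.153 to 0.111 on leaving out 1 array); EXPA8 on norflurazon, at 0.0150 without wild type norflurazon replicate 2 (-0.563 to 0.0150); and EXPA18 between the treated groups, at -0.197 without mutant replicate 1 and -0.264 without wild type norflurazon replicate 2 (-0.264 to 0.387). The filter at the 60th percentile left only EXPA8 and XTH19 of the 5 genes. The cause of the other changes below was not tested.

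For norflurazon in the wild type the count of the 5 genes past the threshold was 1, EXLB1. It was 0 without a filter, with the stricter filter, with quantile normalization, with median scaling and with only the compared arrays. On leaving out 1 array the call of EXLB1 held only without control replicate 2. Without wild type norflurazon replicate 1 the gene that passed was EXPA7 instead, with a change of -1.50. In the whole family the count was 3, and 1 without a filter or with only the compared arrays (XTH18 in both), and 0 to 2 on leaving out 1 array. Between the treated groups 1 of the 5 passed, and 2 with the replicate block (EXPA8 and XTH19) and 1 to 2 on leaving out 1 array; the family had 1, then 3 with the replicate block (EXPA4 added), and 1 to 3. Against the untreated wild type the counts were 2 and 4, and 1 to 2 and 1 to 5 on leaving out 1 array, with 1 in both without control replicate 1 and without control replicate 2. Where a group was left with 1 array, that array was assumed to vary like the other groups.

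Over all probe sets, the 402 calls between the treated groups were 109 with only the compared arrays and 235 without a filter, and 81 to 775 on leaving out 1 array. On norflurazon the 2581 calls became 603 to 3110 on leaving out 1 array. Against the untreated wild type the 2571 calls were 3968 with only the compared arrays and 388 to 4000 on leaving out 1 array, and their 1167 higher and 1404 lower calls were 1686 and 1158 with median scaling, which moved the median of all probe sets there from 0.01 to 0.12. Same-numbered arrays deviated together at a correlation of 0.451 between the treated groups. Between each of these and the control it was 0.0713 and 0.0799. The main fit had no replicate block, as the labels state no pairs, although the treated groups shared part of their deviation. With the block the 402 calls between the treated groups became 591. The block changed no call of the 5 genes besides XTH19.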
